A study of Homo sapiens with 6 samples.

Results

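The genes described here encode the factors that start and extend protein chains on cytosolic ribosomes, with their closest regulators. They were all protein-coding genes of the deposited expression table whose GENCODE 44 symbol begins with EIF1, EIF2B, EIF2S2, EIF2S3, EIF3, EIF4, EIF5, EIF6, EEF1A, EEF1B, EEF1D, EEF1G or EEF2. This gave 62 genes of the 58735 rows in the table, and 56 of them had enough counts to be among the 13503 genes tested. Polyadenylated RNA was sequenced from RKO, a human colorectal carcinoma cell line, treated with EZA (3 replicates) or with DMSO, the solvent control (3 replicates). All 6 libraries come from this one cell line, so the comparison is limited to it. What the abbreviation EZA stands for, how much was given and for how long are not stated in the labels. The question put to the data is how these genes' transcripts differed after EZA compared with DMSO.

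Initiation begins when eIF2, loaded with GTP and the initiator tRNA, joins the small ribosomal subunit together with eIF1, eIF1A, eIF3 and eIF5. The eIF4 factors bind the mRNA cap and load this complex, which then scans to a start codon, where eIF1 guards the choice and eIF5 triggers GTP hydrolysis by eIF2. Elongation then runs on eEF1A, which delivers aminoacyl-tRNA and is recharged by the eEF1B subunits, and on eEF2, which moves the ribosome along by a codon. Many of these mRNAs begin with a C and a run of pyrimidines, a start known as a 5' terminal oligopyrimidine tract, through which mTORC1 controls their translation.

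In EZA-treated cells the transcript of EIF5 fell and that of EIF1 rose, which are the factors that promote and restrain the commitment to a start codon. Among the genes with EIF4 symbols, EIF4E and EIF4G2 fell and EIF4EBP1, the gene of a repressor of eIF4E, rose. EEF1D rose among the elongation factors, and EIF1AD, named for a domain like that of eIF1A, fell. Only the call of EIF5 held under all 16 alternatives run, and the other calls were lost when any DMSO library was left out. Calls over all tested genes also fell then, from 17.7% to 1.6%, 5.71% and 1.84% without DMSO replicates 1, 2 and 3. Each library's trend along GC content and transcript length was also removed. EEF1D then stood at -0.02, EIF4E at -0.12 and EIF4EBP1 at 0.67 on the log2 scale, none of them called. The other 49 tested genes did not pass the test. Calls used an adjusted p below 0.05 in edgeR's quasi-likelihood test with Benjamini-Hochberg adjustment over all 13503 genes, with n = 3 libraries in each group.

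Among the 56 tested factors, 3 were called higher (5.36%), against 9.89% of all tested genes, and 4 were called lower (7.14%), against 7.82% of all tested genes. In either direction these were 7 genes, or 12.5% of the factors against 17.7% of all tested genes, so the results below are about single genes and not about the class. The median log2 fold change of EZA over DMSO was -0.09 for the factors and -0.01 for all tested genes. The study's own threshold, a log2 fold change of 1 or more in size and p below 0.05 before adjustment, was passed by EIF4EBP1 (higher) and EIF5 (lower), 3.57% of the factors against 5.73% of all tested genes. In CPM, 7 factors had all EZA libraries above all DMSO libraries (12.5%, against 21% of all tested genes) and 11 had them all below (19.6%, against 21.7%). The RNA is from bulk cells, so fewer cells with a transcript and less transcript per cell cannot be told apart.

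Libraries held 14070611 to 18840954 counts. EZA replicate 3 stood apart: mitochondrial genes held 0.203% of its counts, against 3.68% to 4.29% in the other EZA libraries and 4.45% to 5.02% in the DMSO libraries. Its values lay below both other EZA libraries for 31 of the 56 tested factors, above both for 22 and between them for 3. The same count was not made over all tested genes, so whether it is particular to the factors was not tested. The median log2 difference from the DMSO mean over the 56 factors was -0.05, 0.03 and -0.27 in EZA replicates 1, 2 and 3, and over all tested genes 0.00, -0.01 and -0.02. Without EZA replicate 3, 14 factors were called higher (25%, against 19.1% of all tested genes) and 11 lower (19.6%, against 19.2%). With the trend of each library along GC content and transcript length removed as well, 16 were called higher (28.6%, against 19.9%) and 12 lower (21.4%, against 19.1%). Values without that library stand beside the main results that its removal changed most. Of the 10 epithelial and colorectal marker genes, CDH1, CDX1 and CEACAM5 were at 0 in all libraries, and their summed level of 167 to 196 CPM in EZA and 163 to 183 CPM in DMSO came mostly from KRT18 (log2 fold change -0.01). KRT8 had 29.5, 34.8 and 22.9 CPM in EZA, against 15.7, 20.5 and 20.8 CPM in DMSO, higher without overlap (0.61; edgeR adjusted p = 0.0545; 0.76 and 2.35e-05 without EZA replicate 3). The 3 blood markers were at 0, as were COL1A2 and DCN of the 4 mesenchymal markers, whose sum was 6.16 to 8.84 CPM in EZA and 9.26 to 13.4 CPM in DMSO. VIM made up most of it and was lower in EZA without overlap (-0.61; edgeR adjusted p = 0.0914; -0.50 and 0.0308 without EZA replicate 3). The part of these marker differences in the results below was not tested.

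**Figure D1:**
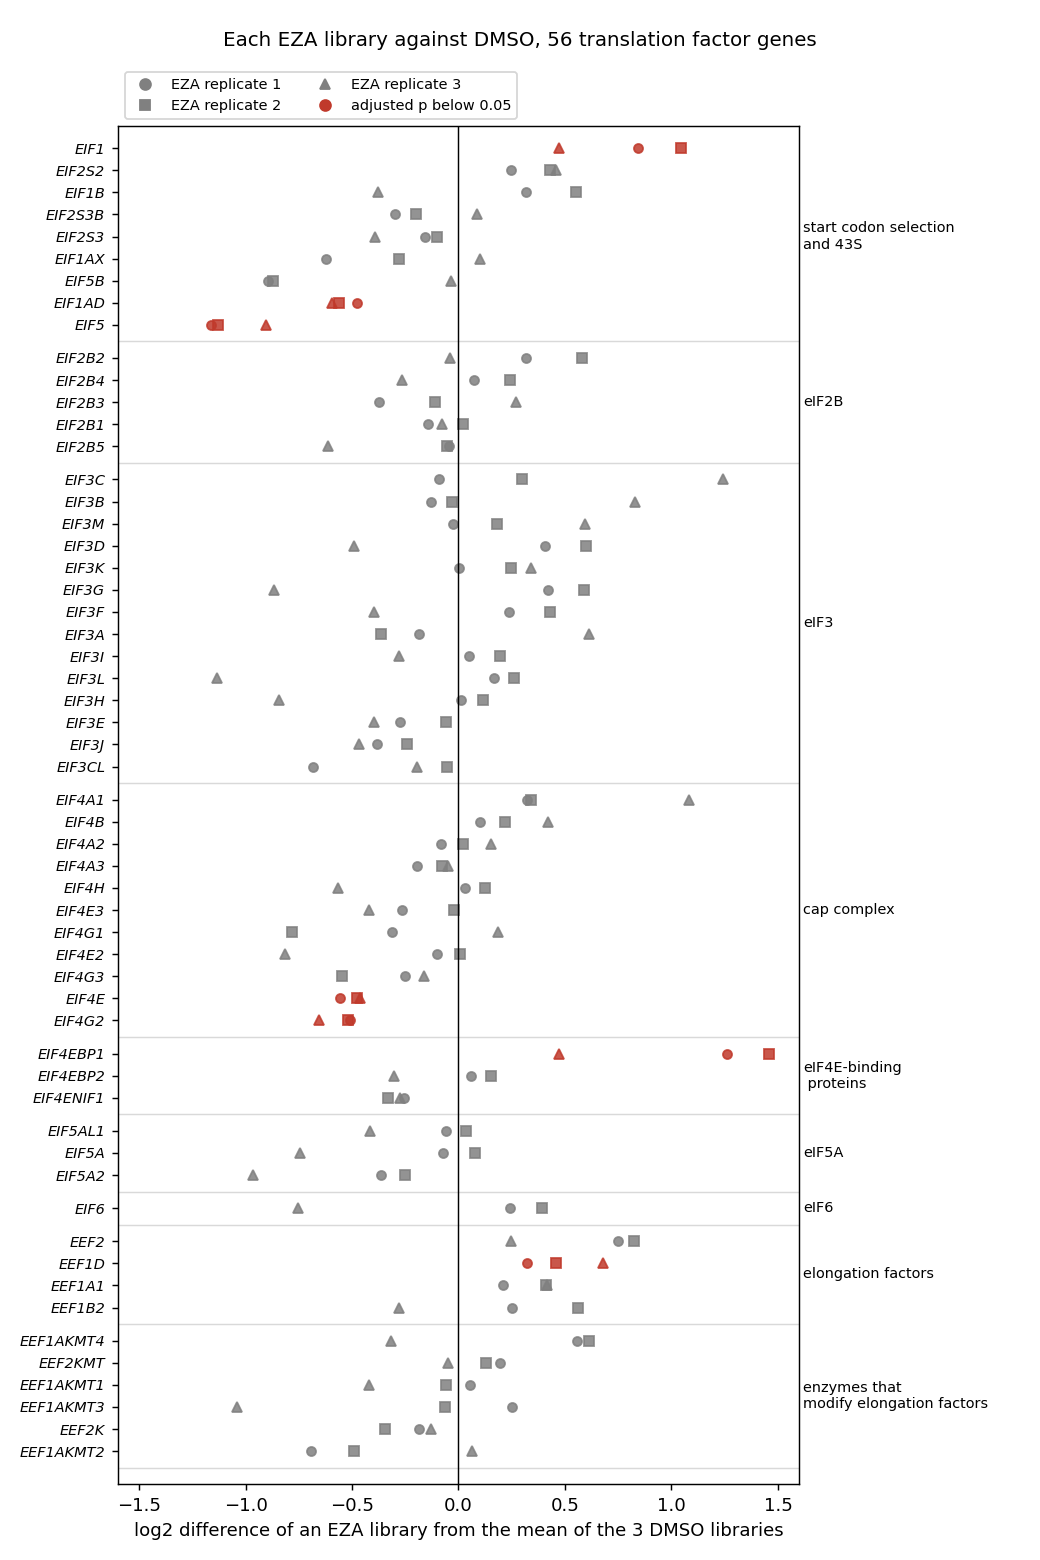
Distance of every EZA library to the mean of the 3 DMSO libraries (x axis, log2 scale) for the 56 tested genes, grouped by role. Circles, squares and triangles are EZA replicates 1, 2 and 3, and red marks the 7 genes with an adjusted p below 0.05. EZA replicate 3 lies outside the other 2 EZA libraries for 53 of the 56 genes, and the largest fall common to all 3 libraries is that of EIF5.

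Because the tract at the start of the mRNA defines a class of translation factor genes, the bases around the transcription start are shown for the genes that carry it. A gene was taken to carry it if any of its listed starts did. EEF1B2 and EIF2S3B each have another listed start without it, which is not shown. The windows hold 15 bases before and 15 bases from the first transcribed base, 5' to 3' on the strand of the gene, from RefSeq on GRCh38.p14. Capitals mark a C at the first transcribed base with the run of C or T that follows it, where that run has at least 4 bases.
EEF1A1, chr6:73521018-73521047, minus strand: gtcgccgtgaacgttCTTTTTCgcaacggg
EEF2, chr19:3985449-3985478, minus strand: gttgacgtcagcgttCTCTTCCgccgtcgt
EEF1B2, chr2:206159880-206159909, plus strand: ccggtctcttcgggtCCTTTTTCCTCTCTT
EIF4A2, chr3:186783562-186783591, plus strand: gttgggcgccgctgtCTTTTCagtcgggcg
EIF4B, chr12:53006441-53006470, plus strand: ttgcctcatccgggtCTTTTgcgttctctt
EIF3D, chr22:36529152-36529181, minus strand: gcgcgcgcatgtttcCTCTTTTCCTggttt
EIF3F, chr11:7987322-7987351, plus strand: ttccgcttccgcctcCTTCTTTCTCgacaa
EIF3K, chr19:38619173-38619202, plus strand: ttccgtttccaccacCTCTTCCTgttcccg
EIF3M, chr11:32583816-32583845, plus strand: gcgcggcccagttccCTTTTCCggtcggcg
EIF2S3, chrX:24054941-24054970, plus strand: ggggtgatttccttcCTCTTTTggcaacat
EIF2S3B, chr12:10505875-10505904, plus strand: ggggtgactttcttcCTCTTTTggcaacat
Windows of 4 genes that passed the test are shown for contrast, and none has such a run at its first base. The other listed starts of EIF5 and EIF4G2 and the start of EIF1AD, not shown, have none either.
EIF1, chr17:41688870-41688899, plus strand: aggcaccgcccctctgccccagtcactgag
EIF5, chr14:103334222-103334251, plus strand: gcggcggcgttgttcagtcagagcgagaac
EIF4E, chr4:98929119-98929148, minus strand: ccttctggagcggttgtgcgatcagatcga
EIF4G2, chr11:10807982-10808011, minus strand: gaggttgtcggaagcacttccctaacttgc

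Of the 62 genes, 49 had an entry in the RefSeq start table, and 11 of these (22.4%) had such a start, against 1404 of all 27305 genes in the table (5.14%). The other members are EEF1A2, EEF1AKMT1, EEF1AKMT3, EEF1D, EEF2KMT, EIF2S2, EIF3A, EIF3CL, EIF3E, EIF3G, EIF3H, EIF3L and EIF4EBP1. The 11 starts belong to both ends of the pathway: the core elongation factors EEF1A1, EEF2 and EEF1B2, the helicase EIF4A2 and its partner EIF4B, 4 subunits of eIF3, and the gamma subunit of eIF2 with its retrogene copy EIF2S3B. All 11 were tested and none was called, while 9 had a positive and 2 a negative log2 fold change, with a median of 0.22. The 33 tested factors with another start had a median of -0.21, with 10 positive and 23 negative, of which 1 was called higher and 4 lower. Medians of the 11 genes were 0.10, 0.25 and 0.15 in EZA replicates 1, 2 and 3, and those of the 33 genes were -0.14, -0.03 and -0.28. Among the other tested genes, the 737 with such a start had a median of 0.04 and the 9151 without one -0.02. This grouping by start was chosen after the values were seen, so it carries no test.

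The median GC content of the exons was 42.5% for the 11 genes and 47.8% for the 33. With each library's trend along GC content and transcript length removed, the 11 genes had a median of 0.24 and all 11 were positive. The 33 genes then had a median of -0.11 with 10 positive, and 432 of the other 737 genes with such a start were positive. Without EZA replicate 3, and with the trend kept, the medians were 0.16 and -0.08, with 8 of the 11 and 12 of the 33 positive. In that comparison 5 of the 11 genes were called higher and none lower, 5 of the 33 higher and 10 lower, and of the other 737 genes with such a start 230 higher and 113 lower, against 19.1% higher and 19.2% lower of all tested genes. The amino acid response element TGATGNAA, searched on both strands from 250 bases before to 50 bases after the start, was found in EIF4E3 alone among the 49 genes. Of all genes in the start table, 4.46% held it, and EIF4EBP1 is not among the 49.

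**Figure D2:**
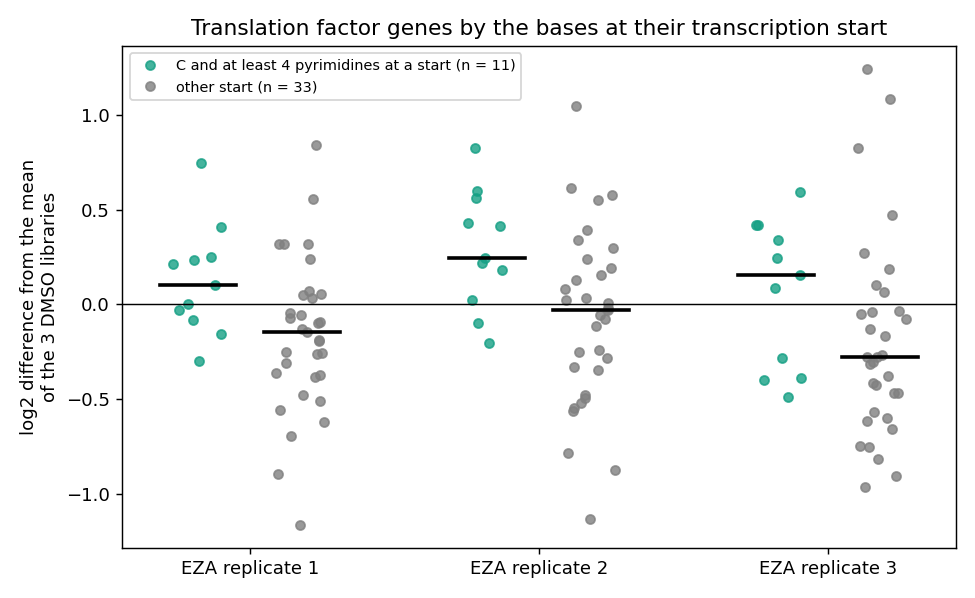
Distance of every EZA library to the DMSO mean (y axis, log2 scale) for 11 translation factor genes that start with a C and at least 4 pyrimidines (green) and 33 that do not (grey). Each point is a gene and each black bar the median, which is higher for the 11 genes in each of the 3 EZA libraries.

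Grouped by symbol under start codon selection and assembly on the small subunit were 10 of the genes, with EIF1AD placed there by its symbol alone. Of these, 9 were tested, 1 was called higher and 2 lower, with a median log2 fold change of -0.21. EIF5 (ENSG00000100664, chr14:103333544-103345025 on GRCh38) encodes the GTPase-activating protein of eIF2. Its transcript had 143, 146 and 171 CPM in EZA replicates 1 to 3, against 370, 281 and 313 CPM in DMSO replicates 1 to 3. Every EZA library was below every DMSO library, with means of 153 ± 15.4 CPM in EZA and 322 ± 44.9 CPM in DMSO (SD, n = 3 each). Its log2 fold change was -1.07 ± 0.15 (SE; edgeR adjusted p = 0.00433), a level 2.10-fold lower in EZA. EIF5 was also called under each of the 16 alternatives run, with adjusted p of 1.87e-10 to 0.0373, and it lay at -0.78 once the trend was removed.

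EIF1 (ENSG00000173812, chr17:41688885-41692668) encodes the factor that holds the scanning complex open until a start codon is matched. It had 655, 754 and 507 CPM in EZA, against 384, 362 and 350 CPM in DMSO. The lowest EZA library was above the highest DMSO library, and the means were 639 ± 125 CPM in EZA and 365 ± 17.5 CPM in DMSO (SD, n = 3 each). EIF1 thus differed by 0.81 ± 0.17 on the log2 scale (SE; edgeR adjusted p = 0.0158, 4.99e-12 to 0.0971 over the alternatives), or 1.75-fold higher in EZA. The call was lost without DMSO replicate 1, 2 or 3 (edgeR adjusted p = 0.0856, 0.0668 and 0.0971), each of which leaves 2 DMSO libraries. Its paralogue EIF1B had 35.3, 41.5 and 21.8 CPM in EZA, against 30.4, 27.4 and 27.2 CPM in DMSO, and was called when EZA replicate 3 was left out (log2 fold change 0.44; edgeR adjusted p = 0.00455). Per length, the deposited FPKM of EIF1 was 9.79, 9.59 and 12.3 times that of EIF1B in EZA, and 6.67, 6.98 and 6.78 times in DMSO. The ratio of EIF1 to EIF5 in FPKM was 10.8, 12.1 and 6.96 in EZA, against 2.44, 3.02 and 2.62 in DMSO. The ratios did not overlap, and they averaged 9.96 ± 2.68 in EZA and 2.69 ± 0.299 in DMSO (SD, n = 3 each). The pair was set as a ratio after its values were seen, so the ratio is a description, and its size depends on the gene lengths behind the FPKM.

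EIF1AD (ENSG00000175376, chr11:65996545-66002176) had 29.1, 27.4 and 26.8 CPM in EZA, against 40.5, 41.6 and 39.6 CPM in DMSO. Both groups were tight and did not overlap, and the log2 fold change was -0.55 ± 0.12 (SE; edgeR adjusted p = 0.0208, 1.54e-05 to 0.109 over the alternatives). The call was lost without DMSO replicate 1, 2 or 3 (edgeR adjusted p = 0.0987, 0.0729 and 0.109) or EZA replicate 2 (0.0543).

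The remaining factors of this group were not called. EIF5B, the GTPase that joins the ribosomal subunits, had 41.8, 42.4 and 75.9 CPM in EZA, against 74.4, 76.8 and 82.2 CPM in DMSO. EZA replicates 1 and 2 were far below the DMSO libraries and EZA replicate 3 was among them. The log2 fold change of EIF5B was -0.55 ± 0.23 (edgeR adjusted p = 0.124), without EZA replicate 3 it was -0.88 (1.09e-07), and with the trend removed -0.21 (0.542). With both changes EIF5B was called lower (-0.51; edgeR adjusted p = 2.29e-05). EIF1AX, which encodes eIF1A, had 109, 138 and 179 CPM in EZA, against 180, 153 and 171 CPM in DMSO, and was called lower when EZA replicate 3 was left out (-0.44; edgeR adjusted p = 0.00208). With the trend removed, EIF1AX stood at 0.16 with all libraries and at -0.015 without EZA replicate 3, not called in either (edgeR adjusted p = 0.499 and 0.881). The beta subunit of eIF2, EIF2S2, had 233, 264 and 269 CPM in EZA, against 214, 177 and 199 CPM in DMSO. These did not overlap, but the log2 fold change of 0.38 ± 0.13 missed the threshold (edgeR adjusted p = 0.0735; 0.0116 without EZA replicate 3 and 0.0264 with the trend removed). The gamma subunit EIF2S3 had 293, 305 and 249 CPM in EZA, against 349, 308 and 324 CPM in DMSO, all lower in EZA but not called (-0.21; edgeR adjusted p = 0.281), with a value of 0.02 once the trend was removed. Its copy EIF2S3B had a log2 fold change of -0.14.

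**Figure D3:**
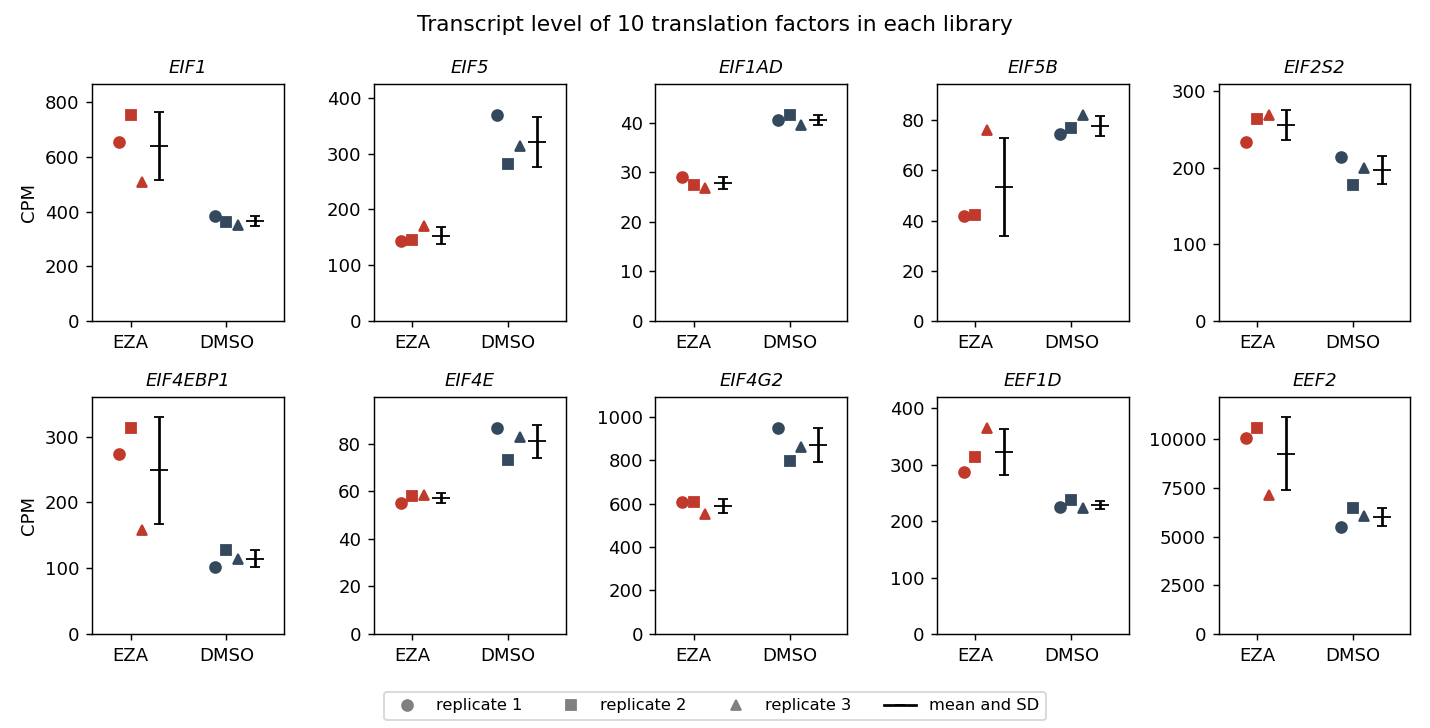
Transcript level (y axis, CPM scaled by TMM) of 10 translation factor genes in each library, EZA left and DMSO right, with the mean and SD of each group of 3. EZA and DMSO points overlap for EIF5B only, where EZA replicate 3 sits with the DMSO libraries. EIF5, EIF1AD, EIF4E and EIF4G2 are lower in EZA, and the other 5 are higher.

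eIF2B exchanges GDP for GTP on eIF2. None of its 5 subunit genes was called, and their median log2 fold change was -0.05. EIF2B2, the beta subunit, had 63.5, 76.1 and 49.5 CPM in EZA, against 49.1, 54.1 and 49.7 CPM in DMSO (log2 fold change 0.31 ± 0.17; edgeR adjusted p = 0.223). EZA replicates 1 and 2 were higher than the DMSO libraries and EZA replicate 3 was not, and without that library EIF2B2 was called (0.46; edgeR adjusted p = 0.00173). EIF2B5, the catalytic subunit, had 68.9, 68.6 and 46.5 CPM in EZA, against 72.4, 71.1 and 70.2 CPM in DMSO, and was not called (-0.21; edgeR adjusted p = 0.389). EIF2B1, EIF2B3 and EIF2B4 had log2 fold changes of -0.07, -0.05 and 0.03.

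eIF3, the large scaffold that recruits mRNA to the small subunit, is encoded by 14 of the genes. All 14 were tested and none was called, with a median log2 fold change of 0.11 and a range of -0.63 to 0.51. EZA replicate 3 set the spread: it lay below both other EZA libraries for 8 subunit genes, above both for 5 and between them for 1. EIF3D, a subunit that can bind the cap, had 418, 478 and 225 CPM in EZA, against 324, 315 and 307 CPM in DMSO. EIF3G, a subunit that takes part in scanning, had 261, 294 and 107 CPM in EZA, against 169, 216 and 204 CPM in DMSO. EIF3L had 313, 334 and 127 CPM in EZA, against 286, 274 and 276 CPM in DMSO. In these 3 genes EZA replicates 1 and 2 were above all DMSO libraries and EZA replicate 3 below them.

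In the core scaffold subunits EIF3A and EIF3B, EZA replicate 3 was instead high. EIF3A had 527, 465 and 917 CPM in EZA, against 581, 610 and 606 CPM in DMSO, and EIF3B had 500, 536 and 971 CPM in EZA, against 516, 584 and 544 CPM in DMSO. It was the highest of all libraries for both. Without it, EIF3D, EIF3G and EIF3F were called higher (log2 fold change 0.51, 0.50 and 0.34; edgeR adjusted p = 0.000156, 0.000358 and 0.00976). EIF3A and EIF3J were called lower without it (-0.27 and -0.31; edgeR adjusted p = 0.0373 and 0.036), so EIF3A changed sign, since its value with all libraries was 0.09. Once the trend was removed as well, EIF3D and EIF3F were still called (0.39 and 0.69; edgeR adjusted p = 7.81e-06 and 4.43e-06), and EIF3G, EIF3A and EIF3J were not (0.11, -0.03 and -0.03; edgeR adjusted p = 0.15, 0.763 and 0.752). EIF3J, a loosely attached subunit, had 39.6, 43.7 and 37.3 CPM in EZA, against 55.6, 47.6 and 52.1 CPM in DMSO, without overlap (-0.36; edgeR adjusted p = 0.0836 with all libraries). The subunit genes EIF3E, EIF3H, EIF3I, EIF3K and EIF3M had log2 fold changes of -0.24, -0.18, 0.00, 0.20 and 0.27. EIF3M was called higher with the trend removed (0.61; edgeR adjusted p = 0.036), and without EZA replicate 3 EIF3H stood at 0.06 and EIF3L at 0.22.

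As the subunits share a complex, each FPKM value was set against the median subunit of its library. By deposited FPKM EIF3I was the most abundant, at 3.95 ± 0.452 times the median subunit in EZA and 4.0 ± 0.190 times in DMSO (SD, n = 3 each). This rank depends on the gene lengths behind the FPKM. In CPM, EIF3E had 533, 619 and 489 in EZA and 708, 571 and 662 in DMSO. EIF3I was below it in every library, with 431, 477 and 344 CPM in EZA and 412, 418 and 420 CPM in DMSO. EIF3J was low, at 0.208 ± 0.038 in EZA and 0.269 ± 0.035 in DMSO. The relative levels of EIF3A were 1.02, 1.00 and 2.72 in EZA, against 1.43, 1.35 and 1.41 in DMSO. Those of EIF3B were 0.762, 0.909 and 2.27 in EZA, against 1.00, 1.02 and 1.00 in DMSO. For both genes EZA replicate 3 was far above the other 5 libraries. EIF3E varied as much in DMSO, at 2.06, 1.49 and 1.82, as in EZA, at 1.22, 1.58 and 1.72.

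EIF3C and EIF3CL are near-identical copies, so their separate counts are uncertain. How reads that match both copies were counted is not stated in the labels, so their sum may be too low as well. Their log2 fold changes were 0.51 ± 0.38 for EIF3C and -0.63 ± 0.52 for EIF3CL (edgeR adjusted p = 0.38 and 0.419). EIF3CL held 23.4%, 26.7% and 14.6% of their summed CPM in EZA, and 56%, 43.8% and 9.08% in DMSO. The sum was 30.1, 41.2 and 68.3 CPM in EZA, against 42.7, 35.4 and 43.7 CPM in DMSO, which overlapped. It stood at 0.147 ± 0.087 of the median subunit per length in EZA and 0.140 ± 0.036 in DMSO (SD, n = 3 each).

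**Figure D4:**
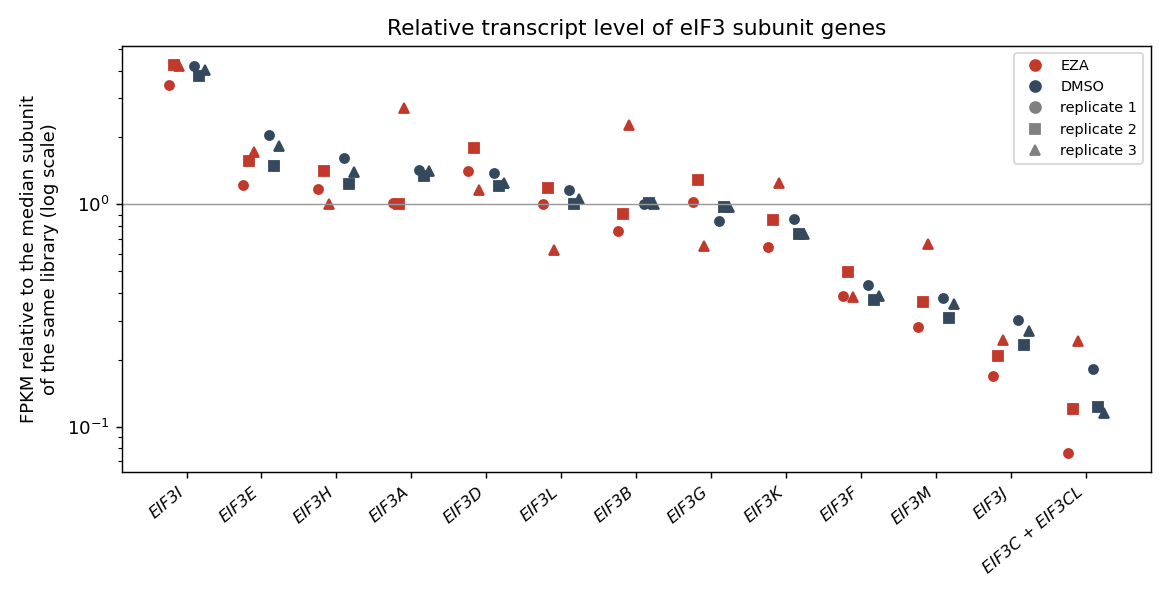
Deposited FPKM of each eIF3 subunit gene relative to the median subunit of the same library (y axis, log scale), EZA in red to the left of DMSO in blue, with a symbol for each replicate and EIF3C and EIF3CL summed. EZA replicate 3 (red triangles) stands high for EIF3A (2.72) and EIF3B (2.27), and EIF3I has the highest deposited FPKM in every library.

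Grouped by symbol with the complex that binds the cap and unwinds the mRNA were 12 of the genes, and not all of them encode its parts. Of the 11 tested, none was called higher and 2 were called lower, with a median log2 fold change of -0.23. EIF4E (ENSG00000151247, chr4:98879276-98929133) encodes the cap-binding protein. It had 54.9, 58.0 and 58.5 CPM in EZA, against 86.8, 73.2 and 83.0 CPM in DMSO, with no overlap and means of 57.2 ± 1.96 CPM in EZA and 81.0 ± 7.02 CPM in DMSO (SD, n = 3 each). EIF4E thus differed by -0.50 ± 0.12 on the log2 scale (SE; edgeR adjusted p = 0.0280, 0.000401 to 0.549 over the alternatives). Removing the trend gave -0.12 (edgeR adjusted p = 0.388); the exons of EIF4E are 34.5% GC. The call was also lost without DMSO replicate 1, 2 or 3 (edgeR adjusted p = 0.136, 0.0587 and 0.142) and without EZA replicate 1 or 2 (0.0708 and 0.0579). Its paralogues EIF4E2 and EIF4E3 were not called (-0.26 and -0.23; edgeR adjusted p = 0.404 and 0.332).

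EIF4G2 (ENSG00000110321, chr11:10797050-10808940), a relative of eIF4G that lacks the part that binds eIF4E, had 608, 605 and 550 CPM in EZA, against 950, 798 and 861 CPM in DMSO. The groups did not overlap, and the means were 588 ± 32.7 CPM in EZA and 869 ± 76.2 CPM in DMSO (SD, n = 3 each). The log2 fold change was -0.56 ± 0.14 (SE; edgeR adjusted p = 0.0266, 1.83e-05 to 0.14 over the alternatives), and with the trend removed -0.39 (edgeR adjusted p = 0.0408). The call was lost without DMSO replicate 1, 2 or 3 (edgeR adjusted p = 0.136, 0.0678 and 0.132) and without EZA replicate 1 or 2 (0.0555 and 0.0525).

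EIF4G1, the main scaffold of the cap complex, had 497, 358 and 702 CPM in EZA, against 595, 664 and 593 CPM in DMSO. Its EZA values spanned the DMSO range (log2 fold change -0.25; edgeR adjusted p = 0.46), and it was called lower when EZA replicate 3 was left out (-0.53; edgeR adjusted p = 0.00054). EIF4G3 had 102, 83.2 and 109 CPM in EZA, against 119, 127 and 120 CPM in DMSO, lower without overlap but not called (-0.31; edgeR adjusted p = 0.133; -0.39 and 0.00497 without EZA replicate 3). The FPKM ratio of EIF4G1 to EIF4G2 was 0.857, 0.620 and 1.34 in EZA and 0.657, 0.872 and 0.722 in DMSO, so the groups overlapped.

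The helicase EIF4A2, which has a pyrimidine start, had 248, 266 and 292 CPM in EZA, against 282, 246 and 260 CPM in DMSO, with a log2 fold change of 0.03. EIF4B, which stimulates the helicase and has a pyrimidine start as well, had 849, 923 and 1059 CPM in EZA, against 830, 758 and 790 CPM in DMSO. Its values did not overlap, but it was not called (0.25 ± 0.14; edgeR adjusted p = 0.239). EIF4A1, which encodes the other cytosolic eIF4A, had only 72, 84 and 111 counts in EZA and 49, 74 and 52 counts in DMSO, or 0.566 to 1.45 FPKM (log2 fold change 0.61 ± 0.28; edgeR adjusted p = 0.160). EIF4A2 averaged 42.7 FPKM over the 6 libraries. EIF4A3, a helicase of the exon junction complex, and EIF4H, another partner of the helicase, each had a log2 fold change of -0.11.

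Proteins that bind eIF4E and keep it from eIF4G are encoded by 3 EIF4EBP genes, and EIF4ENIF1 encodes its nuclear carrier. Of these 4 genes 3 were tested, and 1 was called, higher. EIF4EBP1 (ENSG00000187840, chr8:38030534-38060365), whose product is a target of mTORC1, had 274, 314 and 158 CPM in EZA, against 101, 128 and 114 CPM in DMSO. All EZA libraries were above all DMSO libraries, though EZA replicate 3 was closest to them, and the means were 249 ± 80.7 CPM in EZA and 115 ± 13.3 CPM in DMSO (SD, n = 3 each). EIF4EBP1 thus differed by 1.12 ± 0.23 on the log2 scale (SE; edgeR adjusted p = 0.0171, 3.16e-13 to 0.116 over the alternatives), or 2.17-fold higher in EZA, and 1.36 without EZA replicate 3. Removing the trend gave 0.67 (edgeR adjusted p = 0.095), and the exons are 62.9% GC. The call was also lost without DMSO replicate 1, 2 or 3 (edgeR adjusted p = 0.104, 0.0569 and 0.079). With the trend removed and EZA replicate 3 left out, EIF4EBP1 was called (0.91; edgeR adjusted p = 7.35e-12).

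EIF4EBP2 had 85.4, 91.3 and 66.5 CPM in EZA, against 81.6, 80.8 and 83.8 CPM in DMSO, with a log2 fold change of -0.02, and EIF4EBP3 had 20 counts in all 6 libraries. EIF4ENIF1 had 23.6, 22.5 and 23.3 CPM in EZA, against 28.2, 30.8 and 26.0 CPM in DMSO, lower without overlap but not called (-0.29; edgeR adjusted p = 0.149). The FPKM ratio of EIF4EBP1 to EIF4E, the repressor to its target, was 65.3, 70.9 and 35.5 in EZA, against 15.3, 22.9 and 18 in DMSO. The ratios did not overlap and averaged 57.2 ± 19 in EZA and 18.8 ± 3.87 in DMSO (SD, n = 3 each). In CPM, EZA libraries had 274, 314 and 158 for EIF4EBP1 and 54.9, 58.0 and 58.5 for EIF4E. The size of the FPKM ratios thus depends on the gene lengths behind the FPKM, and only their difference between the groups is described. They are ratios of transcripts, chosen after the values were seen, and say nothing of the proteins.

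eIF5A carries hypusine, helps ribosomes past stretches such as runs of proline, and is encoded by 3 of the genes, none of them called. EIF5A had 1179, 1310 and 739 CPM in EZA, against 1181, 1295 and 1245 CPM in DMSO. Only EZA replicate 3 left the DMSO range by much (log2 fold change -0.21 ± 0.21; edgeR adjusted p = 0.522), and without it the value was 0.01, or -0.28 with the trend removed as well (edgeR adjusted p = 0.000219). EIF5A2 had 17.5, 18.9 and 11.5 CPM in EZA, against 23.4, 19.3 and 25.4 CPM in DMSO, lower without overlap (-0.50; edgeR adjusted p = 0.118). Removing the trend left EIF5A2 at -0.02, or at 0.19 also without EZA replicate 3, and its exons are 33.9% GC. EIF5AL1 had a log2 fold change of -0.14. EIF6, which keeps the ribosomal subunits apart, had 204, 227 and 102 CPM in EZA, against 162, 181 and 176 CPM in DMSO. It was called higher when EZA replicate 3 was left out (0.32; edgeR adjusted p = 0.0146), with all libraries its log2 fold change was 0.04, and with the trend removed it was -0.25, or 0.007 also without that library (edgeR adjusted p = 0.518 and 0.936).

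Among the elongation factors, 4 of 6 were tested, 1 was called higher and none lower, with a median log2 fold change of 0.42. EEF1A1 (ENSG00000156508, chr6:73489308-73525587) held the most counts of any gene in each of the 6 libraries, 1.95%, 2.20% and 2.31% of all counts in EZA and 1.86%, 1.68% and 1.70% in DMSO. All 62 factors together held 4.13%, 4.47% and 4.17% of the counts in EZA and 3.68%, 3.55% and 3.55% in DMSO, so each EZA library was above each DMSO library. Most of these counts were those of EEF1A1 and EEF2, so the sum does not speak for the other factors. The median log2 fold change of the tested factors was -0.09. The highest levels per length among the factors were those of EEF1A1, EEF2 and EIF5A, which averaged 3240, 1873.5 and 406 FPKM over the 6 libraries.

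EEF1A1 had 19895, 22854 and 22931 CPM in EZA, against 18353, 16622 and 16641 CPM in DMSO, without overlap. Its log2 fold change of 0.35 ± 0.15 was not called (edgeR adjusted p = 0.145), but was with the trend removed (0.55; 0.0476) and without EZA replicate 3 (0.32; 0.00946). EEF2 (ENSG00000167658, chr19:3976056-3985463), the translocase, had 10081, 10613 and 7122 CPM in EZA, against 5523, 6486 and 6040 CPM in DMSO. All EZA libraries were higher, and the log2 fold change of 0.62 ± 0.19 missed the threshold (edgeR adjusted p = 0.0520; DESeq2 adjusted p = 0.00698). Without EZA replicate 3 it was 0.78 (edgeR adjusted p = 3.87e-08), and with the trend removed 0.33 (edgeR adjusted p = 0.276). With both changes EEF2 was called higher (0.51; edgeR adjusted p = 1.6e-07). EEF1B2, an exchange factor of eEF1A, had 819, 1015 and 567 CPM in EZA, against 740, 653 and 675 CPM in DMSO. Its EZA values lay on both sides of the DMSO values (0.22; edgeR adjusted p = 0.491), and it was called higher when EZA replicate 3 was left out (0.41; edgeR adjusted p = 0.00198). These 3 genes have the pyrimidine starts shown above.

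EEF1D (ENSG00000104529, chr8:143579697-143599541), which encodes another exchange subunit, was the one called. It had 286, 315 and 366 CPM in EZA, against 225, 237 and 224 CPM in DMSO, with no overlap and means of 322 ± 40.4 CPM in EZA and 229 ± 7.46 CPM in DMSO (SD, n = 3 each). The log2 fold change was 0.49 ± 0.13 (SE; edgeR adjusted p = 0.0355, 0.00207 to 0.966 over the alternatives). Removing the trend gave -0.02, and the exons of EEF1D are 64.6% GC. The call was also lost with scaling by library size alone (edgeR adjusted p = 0.0546) and without DMSO replicate 1, 2 or 3 (0.148, 0.0915 and 0.168) or EZA replicate 2 (0.0619). Other genes overlap 34.5% of the exonic bases of its canonical transcript.

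EEF1A2, the eEF1A of muscle and neurons, had 3 counts in all 6 libraries and was not tested. EEF1G, the gamma subunit of eEF1B, had 1 count. Exons of other genes cover 99.5% of the exonic bases of the canonical EEF1G transcript and 100% of those of EIF4A1, and an overlapping gene model, ENSG00000255508, held 15, 14 and 10 counts in EZA and 45, 39 and 52 counts in DMSO. The fused gene model SENP3-EIF4A1 held 3, 2 and 3 counts in EZA and 1, 5 and 1 counts in DMSO. How the authors' counting treated reads that fall in several genes is not stated in the labels, and its part in the low values of EEF1G and EIF4A1 was not tested. Over all exons of a gene, 2 of the 62 factors and 487 of 19831 protein-coding genes (2.46%) were covered at 90% or more. EIF1AY, EIF4E1B and the read-through EEF1AKMT4-ECE2 were not tested either.

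**Figure D5:**
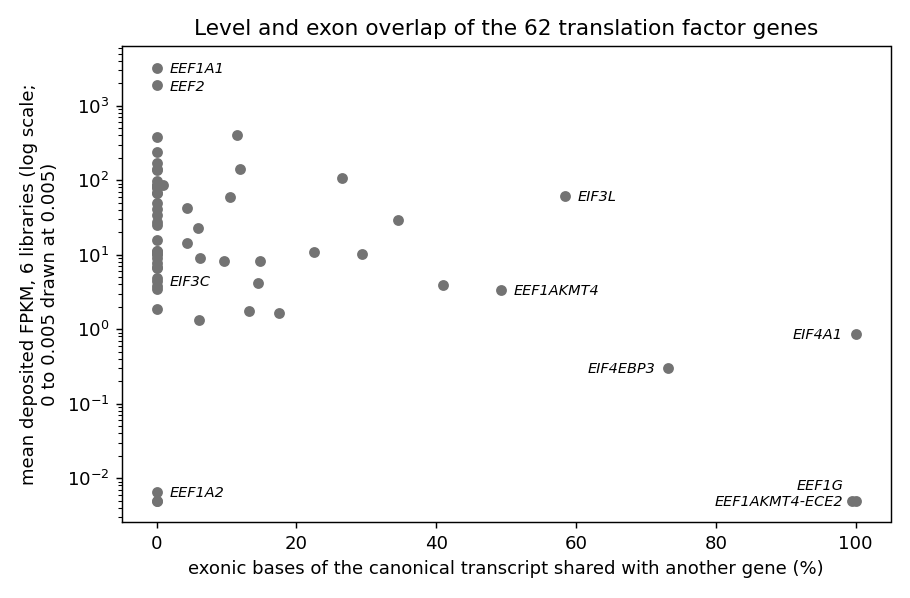
Mean deposited FPKM over the 6 libraries (y axis, log scale) against the share of exonic bases of the canonical transcript that lie in exons of other genes (x axis, percent) for the 62 genes. EEF1A1 and EEF2 stand at the top with no overlap, and EIF4A1 and EEF1G stand at 100% and 99.5% overlap with low values.

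Enzymes that modify elongation factors make up 7 of the genes, of which 6 were tested and none called, with a median log2 fold change of -0.16. EEF2K, the kinase that inactivates eEF2, had 64.1, 57.4 and 66.6 CPM in EZA, against 76.4, 74.1 and 68.5 CPM in DMSO, lower without overlap (-0.22; edgeR adjusted p = 0.236). The methyltransferases of eEF1A had the largest differences of this group, 0.35 for EEF1AKMT4 and -0.35 for EEF1AKMT2. EEF1AKMT1, EEF1AKMT3 and EEF2KMT had -0.13, -0.19 and 0.09. Neither EEF1AKMT4 nor EEF1AKMT2 was called with all libraries (edgeR adjusted p = 0.371 and 0.296). Without EZA replicate 3 EEF1AKMT4 was called higher (0.59; edgeR adjusted p = 0.00938) and EEF1AKMT2 lower (-0.60; edgeR adjusted p = 0.0105). Both calls were lost with the trend removed as well (edgeR adjusted p = 0.338 and 0.237), and with all libraries and the trend removed the values were -0.02 and -0.01.

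Other genes of the pathway were taken as 4 lists, and their counts stand against 9.89% of all tested genes called higher and 7.82% called lower, or 19.1% and 19.2% without EZA replicate 3. Of 11 further genes of the ternary complex and of scanning, 4 were called lower and none higher, with a median log2 fold change of -0.38. Without EZA replicate 3, 5 were lower and 1, EIF2D, higher, with a median of -0.27. BZW1, a mimic of eIF5 that competes with it for eIF2, fell to 139.5, 157 and 177 CPM in EZA, against 290, 241 and 280 CPM in DMSO (-0.78 ± 0.14; edgeR adjusted p = 0.0107). ABCE1, which splits ribosomes for reuse, had 110, 116 and 92.1 CPM in EZA, against 196, 150 and 176 CPM in DMSO (-0.71; edgeR adjusted p = 0.0161). The groups did not overlap for either gene. The helicases DDX3X and DHX29, which help scanning through structured leaders, were lower as well (-0.53 and -0.49; edgeR adjusted p = 0.0263 and 0.030). Calls of all 4 genes were lost without DMSO replicate 1 or 3, with edgeR adjusted p of 0.0723 and 0.0686 for BZW1, 0.0944 and 0.0842 for ABCE1, 0.129 and 0.143 for DDX3X and 0.139 and 0.152 for DHX29. Leaving out DMSO replicate 2, EZA replicate 1 or EZA replicate 2 ended those of DDX3X (0.0663, 0.0506 and 0.0594) and DHX29 (0.0731, 0.0802 and 0.0697). With the trend removed, BZW1 was the only one still called (0.0377). With EZA replicate 3 left out as well, all 4 were called lower, as were 19.1% of all tested genes. For BZW1, ABCE1, DDX3X and DHX29 the edgeR adjusted p was then 6.13e-06, 0.0064, 0.00182 and 0.00816.

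Among 18 genes that control the cap complex, 1 was called higher and none lower, with a median of 0.04, and without EZA replicate 3 the counts were 3 and 2. The gene called with all libraries was PDCD4, an inhibitor of eIF4A, which had 61.7, 62 and 116 CPM in EZA, against 42.9, 37.7 and 41.6 CPM in DMSO (0.97 ± 0.24; edgeR adjusted p = 0.0292). EZA replicate 3 was the highest by far, and without it the log2 fold change was 0.61 (edgeR adjusted p = 6.07e-05). Its call was lost without DMSO replicate 1, 2 or 3 (edgeR adjusted p = 0.122, 0.101 and 0.110).

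Among 22 genes of elongation, termination and recycling, 2 were called higher and none lower, with a median of 0.07, and without EZA replicate 3 the counts were 5 and 4. GTPBP2, which in mice rescues stalled ribosomes, had 216, 226 and 218 CPM in EZA, against 61.9, 66.1 and 61.3 CPM in DMSO. This was the largest log2 fold change of the genes named here, and the groups were far apart (1.80 ± 0.11; edgeR adjusted p = 9.72e-05), and it was called under each of the 16 alternatives. DPH1, an enzyme of the diphthamide residue of eEF2, had 36.5, 35.9 and 36.7 CPM in EZA, against 23.3, 28.4 and 27.7 CPM in DMSO (0.46; edgeR adjusted p = 0.0453). The DPH1 call was lost without DMSO replicate 1, 2 or 3 (edgeR adjusted p = 0.188, 0.0825 and 0.160), without EZA replicate 1 or 2 (0.0944 and 0.0853), with the trend removed (0.168), with scaling by library size alone (0.0661) and with no filter on low counts (0.0657). None of 12 mitochondrial translation factors was called, with a median of -0.11, and 2 were called higher without EZA replicate 3.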

How the data were processed

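Polyadenylated RNA of 6 RKO libraries was sequenced without strand information, per the labels' protocols. The build GRCh38 and the tools featureCounts, HISAT2, DESeq2 and FastQC are listed in the submitters' processing notes; the annotation behind the counts is not given in the sources used here. Counts and FPKM for each Ensembl gene are the authors' deposited values, where tests used the counts and comparisons of levels between genes the FPKM. Such comparisons depend on the gene lengths behind the FPKM, which were not checked. All 12 value columns matched a sample, and 58207 of 58735 identifiers were found in GENCODE 44, which gave symbols, positions, GC content and lengths.

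Low genes were removed with filterByExpr, libraries scaled by TMM, and groups compared without covariates in edgeR's robust quasi-likelihood test (glmQLFit, glmQLFTest; two-sided), adjusted by Benjamini-Hochberg over 13503 genes, and the script was checked on simulated counts. CPM refer to counts in tested genes after TMM scaling, and the floor of 3 counts was 0.159 to 0.213 CPM of all counts. The study calls its replicates biological without stating separate cultures, so the p-values reflect only the spread among these samples, which may be technical. Alternatives were other scalings, no filter, DESeq2, limma-voom with sample weights, the replicate number as a block, each library left out, and each library's lowess trend along GC content and transcript length (span 0.3) taken out. Counts of overlapping or near-identical genes are uncertain.

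The members and lists were chosen with earlier results of these data known. Named were all called members, those with the 3 highest mean FPKM, the 2 largest changes per role, those called or lost without EZA replicate 3, those below the filter, and paralogue pairs. Of the 4 other lists, called genes were named, at most 4 per direction. The software was Python 3.11.15, R 4.3.3, DESeq2 1.42.0, edgeR 4.0.16 and limma 3.58.1.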

Additional observations from a re-analysis of the deposited data

How the results depend on the processing

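The 3 factors called higher and 4 called lower in EZA became 6 higher with DESeq2 (10.2%, against 6.21% of all genes in that fit). With limma-voom and sample weights there were 13 higher and 11 lower (23.2% and 19.6%, against 20.9% and 21.7% of all tested genes). Leaving out each library in turn gave 0 to 14 higher and 1 to 11 lower, with 14 and 11 without EZA replicate 3. Whichever DMSO library was left out, there were 0 higher and 1 lower, where the call that held was that of EIF5. That is 1.79% of the factors, and over all tested genes the calls fell from 17.7% to 1.6%, 5.71% and 1.84% without DMSO replicates 1, 2 and 3. Without EZA replicate 3 and after removal of the GC and length trend there were 16 higher and 12 lower. With the trend removed and the replicate block there was 1 higher and 1 lower (1.79% each, against 2.67% and 1.69% of all tested genes). The count at the study's threshold, 2 in the main comparison, was 1 to 3 with a library left out and 0 in each of the 3 fits with the trend removed. Over all tested genes the shares were 4.93% to 7.6% and 3.64% to 4.03%. The log2 fold change of EEF1D turned to -0.0154 with the trend removed, -0.0422 also without EZA replicate 3, and -0.0120 with the block. EIF3A turned to -0.27 without EZA replicate 3, and its other values with a library left out reached 0.27. With the trend removed and without that library, EIF3B turned to -0.27, EIF3H to 0.32, EIF3L to 0.20, EIF4E3 to 0.36 and EIF4EBP2 to 0.33. The cause was not tested. DESeq2 or upper quartile size factors in the same edgeR test changed no call.

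The replicate numbers did not pair the samples: deviations of same-numbered EZA and DMSO libraries correlated at 0.033, -0.175 and 0.027, and not every library correlated best with its own number. With the replicate block 2 factors were higher (EIF1, EIF4EBP1) and 2 lower (EIF5, EIF5B), 3.57% each. Over all tested genes the shares with the block were 8.39% higher and 6.2% lower. The block ended the calls of EIF1AD (edgeR adjusted p = 0.0502), EIF4E (0.0603), EIF4G2 (0.0641), EEF1D (0.072), DDX3X (0.066), DHX29 (0.0648) and DPH1 (0.0924). With the trend removed as well, the block also ended that of BZW1 (edgeR adjusted p = 0.102). With 3 libraries in each group and 1 EZA library apart from the others, differences as large as some of those called were not called, such as that of EEF2 (0.62).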

Other observations

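Processed copies of these genes also held counts. EEF1A1P5, a pseudogene of EEF1A1, had 7568, 10346 and 8822 counts in EZA and 7690, 5875 and 5550 counts in DMSO. EIF4A1P10, a pseudogene of EIF4A1, had 316, 421 and 199 counts in EZA and 288, 249 and 330 counts in DMSO, in each library more than EIF4A1 itself. The read-through gene model ANKHD1-EIF4EBP3 had 16, 11 and 4 counts in EZA and 29, 30 and 22 counts in DMSO. How reads were shared between these genes and their parents was not tested.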
